A study of Mus musculus with 4 samples.

Results

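The genes described here are 41 transcription factors that direct neural or endodermal development, of 21911 protein-coding genes annotated in GENCODE M21. They were listed by name for their lineage and not by any measured value, although earlier results of these data were known by then. The question put to them is whether CpG-rich developmental promoters, which osteoblasts are thought to keep silent, changed in accessibility when the TET enzymes were lost. Each gene was represented by the regions of the ATAC-seq count table that overlapped its body or the 2 kb of DNA preceding it (a locus). This gave 144 of 255864 regions and 39 of 41 genes, since *Neurog3* and *Olig3* had no region.

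ATAC-seq, which uses a transposase to mark open DNA, was performed on primary osteoblasts, the bone-forming cells, of 3-day-old C57BL/6 mice. The groups were wild type (WT) mice and TCKO mice, in which Prx1-Cre recombined *Tet1*, *Tet2* and *Tet3*, each gene being floxed on both alleles (fl/fl), and whether WT mice also carried floxed alleles was not stated. Prx1-Cre acts in mesenchymal cells, so any other cell in a culture of calvarial bone would keep its *Tet* genes. Of 4 samples, 2 per genotype in the labels, the table held only the sum for each genotype, and a protocol text speaks of 3 repeats per group, so how many libraries were summed is uncertain. No spread between replicates could therefore be measured, no test was possible, and every difference below is between 1 merged library per genotype.

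Transcription factors of this kind are master regulators that choose a lineage and hold it. Their promoters usually lie in CpG islands, stretches rich in unmethylated CpG, and in cells of another lineage they are typically kept silent by the Polycomb complexes, which place the mark H3K27me3, rather than by DNA methylation. TET enzymes oxidise 5-methylcytosine and so help to keep such sites free of methylation.

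Counts over all regions summed to 56898657 in WT and 34608167 in TCKO. TCKO counts were multiplied by 1.64 to match the WT total, 1 was added to each value, and the result is given as a log2 ratio of TCKO over WT with a 95% Wilson interval. These intervals cover counting error only, since PCR copies are not independent molecules and variation between mice is not included. Fewer cells with an open site and a site less open in each cell cannot be told apart in such bulk data. Of the 10 osteoblast markers, all had a region at the gene start, and their loci held 609 CPM (counts scaled to the library total) in WT and 580 in TCKO. The 6 endothelial markers held 120 CPM in WT and 155 in TCKO, and all 6 of their loci had an interval above 0. Summed CPM was 93.7 and 91.8 for 6 macrophage and osteoclast markers, 20.1 and 23.7 for 6 skeletal muscle markers, 56.6 and 61.5 for 6 neural crest and Schwann cell markers and 107 and 114 for 6 epithelial markers. Among these markers only *Myog* and *Acta1*, both of muscle, had no region. The part of other cell types in the results below was not tested.

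The member genes had CpG-rich starts, but these starts were weakly accessible in both genotypes. In the 500 bp around the annotated gene start, 30 of 41 members (73.2%) were CpG-dense, meaning a GC content of at least 50% and an observed over expected CpG of at least 0.6. Of all protein-coding genes, 47.6% were. Yet only 25 of 41 members had a region within 1 kb of the gene start, against 69.3% of all genes. Among genes with a CpG-dense start the gap was wider, with 22 of 30 members (73.3%) against 97.1% of all such genes.

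Where a member start did have a region, its level was low. Levels are given as CPM per kb of region, which allows genes to be compared. The median over the 25 member starts was 6.79 in WT and 7.46 in TCKO, against 16.6 and 15.8 over all genes with a region at the start, and 19.4 and 18.0 over those with a CpG-dense start. None of the 25 was above the median gene in WT. *En1*, which patterns the midbrain and hindbrain and is also active in cranial mesenchyme, came closest at 16.2 in WT and 15.8 in TCKO, at percentile 48.7 of all starts with a region. *Sox1*, a marker of neural progenitors, was lowest at 3.75 and 3.23, at percentile 2.31. The *Hox* cluster genes, another family of CpG-rich developmental regulators, had a median of 5.92 in WT, whereas 30 transcription factors of limb and craniofacial mesenchyme had 14.9.

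**Figure D1:**
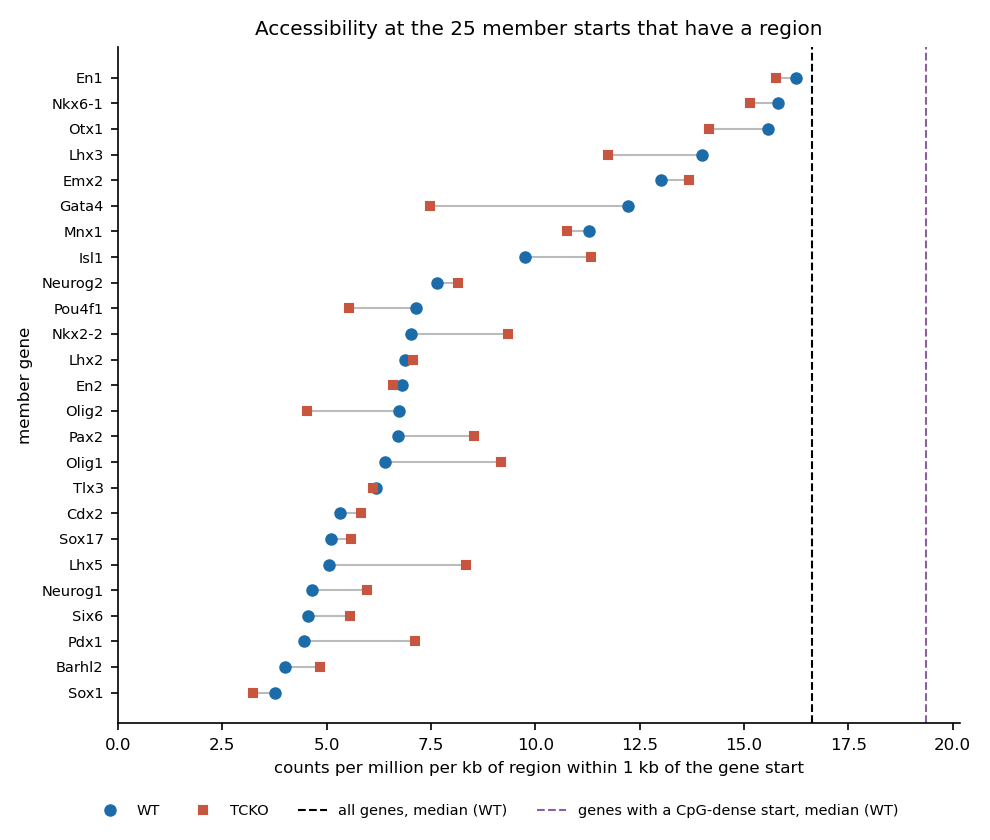
Accessibility within 1 kb of the gene start for the 25 members with a region there, in CPM per kb of region, with WT as circles and TCKO as squares. All 25 WT values lie to the left of the all-gene WT median of 16.6, drawn as a black dashed line, and TCKO lies to the left of WT at some starts and to the right at others.

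The start plot shows no single direction between genotypes. *Gata4*, *Olig2* and *Lhx3* were lower in TCKO, whereas *Lhx5*, *Olig1* and *Pdx1* were higher. Many members have several annotated transcripts, and with a region within 1 kb of any transcript start counted, 35 of 41 members had one, against 74.2% of all genes. Their median was then 7.34 in WT and 8.19 in TCKO, against 16.0 and 15.2, and 2 of the 35 were above the median gene. *Neurod1*, *Neurod2*, *Dbx1* and *Hnf4a* had regions in the gene but none at a start.

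Of the 144 member regions, 11 were at least 2-fold higher in TCKO (7.64%) and 1 was at least 2-fold lower (0.694%). Among all regions, 12.3% were at least 2-fold higher and 4.51% at least 2-fold lower, so both shares were smaller among members. The median ratio of member regions was 0.21, against 0.06 for all regions. Summed over all member regions, the counts were 22066 in WT and 14482 in TCKO, a ratio of 0.11 (0.08 to 0.14).

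Summed by gene, the ratios leaned above 0 by a small amount. Of the 39 loci, 32 had a ratio above 0 and 7 below. Of all 18049 loci with a region, 7902 were above 0 and 10147 below. The median was 0.16 for member loci and -0.03 for all loci. No member locus differed by 2-fold, which 1.89% of all loci did upwards and 0.338% downwards. The interval lay wholly above 0 at 17 member loci (43.6%) and wholly below 0 at 1 (2.56%), against 23.6% and 32.7% of all loci. This split moved with the scaling. With TMM factors 6 member loci lay above 0 and 4 below, against 16.1% and 47.3% of all loci, and with DESeq2 size factors 7 above and 4 below, against 16.97% and 45.4%. Without scaling 0 lay above and 31 below, against 1.47% and 92.1% of all loci, and scaled by the background of the peak caller 0 above and 28 below, against 1.94% and 89.8%. These last 2 settings also moved the median of all regions to -0.64 and -0.54. The ratios given for single loci and regions are therefore relative to total counts, and the locus ratios above 0 lay below 0 under these last 2 settings, except that of *Pdx1* with the background of the peak caller. Relative to the median of all loci, member loci were higher by 0.19 under each of these scalings. Each multiplies all TCKO counts by a single factor, so this gap could not change between them and their match is no check on it.

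Part of the lean went with depth. Member loci were shallow, with a median of 379 WT counts against 1527 for all loci, and across all regions the median ratio was 0.13 in the lowest quintile of count and 0.20 in the next, from where it fell with rising count to -0.08 in the highest. After removal of the trend with count by a loess fit, 8 member loci lay above 0 and 4 below, against 26.5% and 25.5% of all loci. The median of member loci minus that of all loci was then 0.10, and that of regions 0.07. At the level of regions, 7 of 144 were then at least 2-fold higher and 1 lower, against 9.82% and 5.19% of all regions. The choice of regions mattered for single loci. With regions within 25 kb of the gene counted, *Pou4f1* (0.29), *Mnx1* (0.31), *Neurod1* (0.19) and *Otx1* (0.15) moved from below 0 to above 0, and *Six6* (-0.021) and *Gata4* (-0.018) from above to below.

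**Figure D2:**
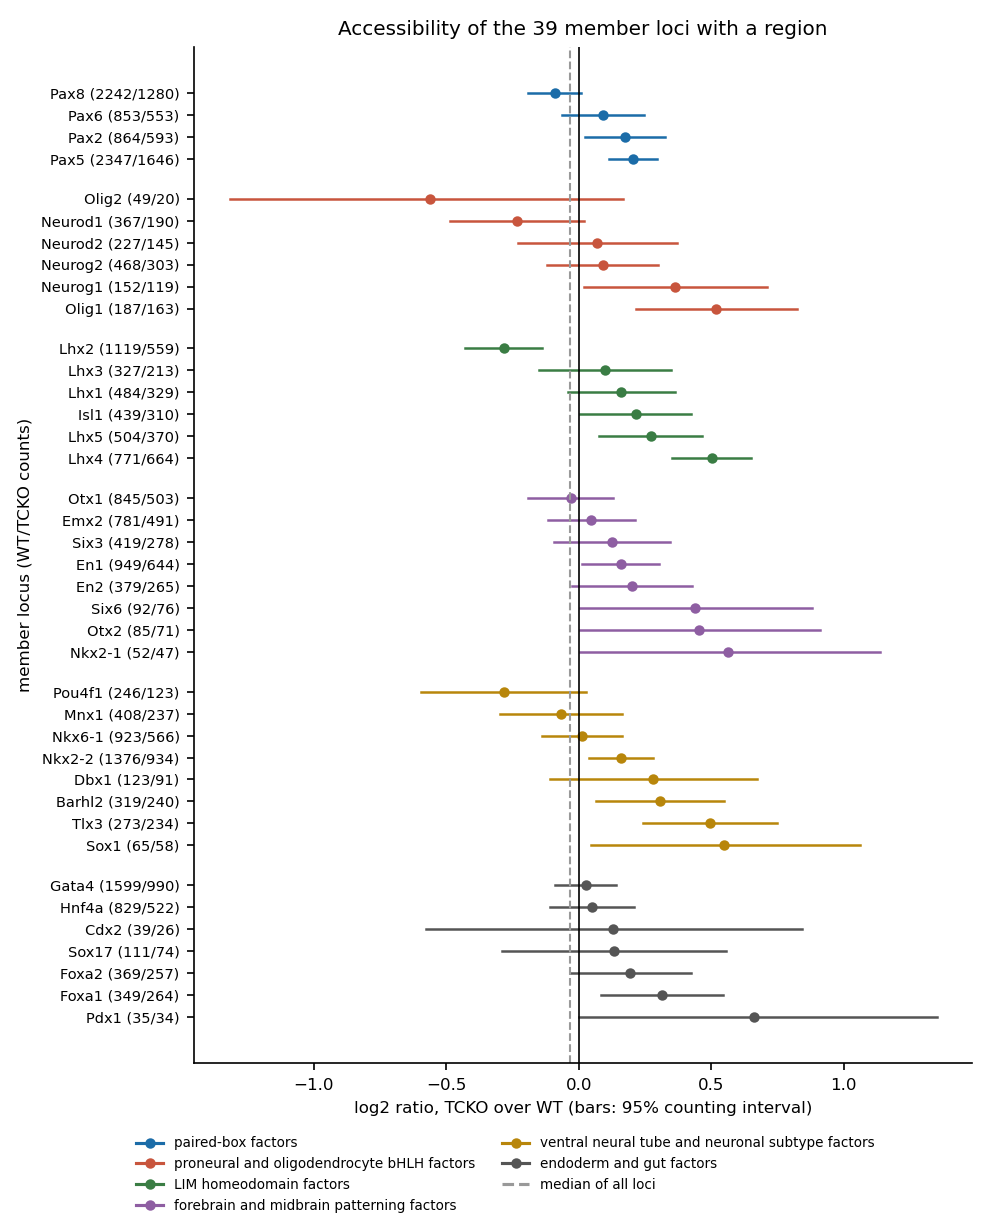
Log2 ratio of TCKO over WT for the 39 member loci with a region, scaled by total counts and grouped by role, with 95% counting intervals as bars and raw counts in the labels. 17 intervals lie above 0, and the only one below 0 is that of *Lhx2*; the dashed line is the all-locus median of -0.03.

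The 4 paired-box factors held 46 regions, 23 of them in *Pax5*, the regulator of B cell identity and of the midbrain boundary. This gene spans chr4:44524757-44710487 on the minus strand. Its locus had the most counts of all members, with 2347 in WT and 1646 in TCKO, a ratio of 0.21 (0.11 to 0.30). Within it lay the only member region at least 2-fold lower, an intronic site at chr4:44626261-44626629 with 247 WT and 61 TCKO counts and a ratio of -1.29 (-1.70 to -0.90). It was called as a peak in WT alone, at a fold enrichment of 8.15 over background, and its 500 bp had an observed over expected CpG of only 0.18. Another 2 *Pax5* regions were at least 2-fold higher at low depth, one with 20 WT and 44 TCKO counts at 1.80 (1.10 to 2.61) and one with 10 and 23 counts at 1.82 (0.87 to 2.97). Among *Pax5* regions with at least 100 counts the highest, also intronic, was at chr4:44534267-44534494, where 72 WT and 88 TCKO counts gave 0.997 (0.56 to 1.45). The largest *Pax5* region, within 1 kb of a transcript start inside the gene, differed little, with 677 and 479 counts and a ratio of 0.22 (0.05 to 0.39).

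The other paired-box genes were *Pax8*, which directs thyroid and kidney development, *Pax2*, of kidney and midbrain, and *Pax6*, of the eye. *Pax8* had 2242 WT and 1280 TCKO counts and a ratio of -0.09 (-0.19 to 0.01), but its 10 regions did not move together. The deepest member region of all, an intronic site at chr2:24452996-24453924, had 1602 and 763 counts and a ratio of -0.35 (-0.48 to -0.23). Another intronic site at chr2:24440155-24440422 had 136 and 171 counts and a ratio of 1.04 (0.72 to 1.37), the deepest of the 11 regions that were at least 2-fold higher. The site at chr2:24442649-24442861, had 80 and 34 counts and a ratio of -0.51 (-1.09 to 0.06). All 3 overlap no other protein-coding gene. *Pax2* was at 0.17 (0.02 to 0.33) and *Pax6* at 0.09 (-0.06 to 0.25).

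The sites that differed most in the 2 genes, among regions with at least 100 counts over both genotypes, are shown to compare their make-up, as the plus strand of GRCm38 with each CpG in capitals. The *Pax5* stretch is the central 300 bp of the lower region (chr4:44626295-44626594). The *Pax8* stretch is the whole higher region, labelled as intron by its midpoint but also overlapping 1 annotated exon.
Pax5 intron, lower in TCKO: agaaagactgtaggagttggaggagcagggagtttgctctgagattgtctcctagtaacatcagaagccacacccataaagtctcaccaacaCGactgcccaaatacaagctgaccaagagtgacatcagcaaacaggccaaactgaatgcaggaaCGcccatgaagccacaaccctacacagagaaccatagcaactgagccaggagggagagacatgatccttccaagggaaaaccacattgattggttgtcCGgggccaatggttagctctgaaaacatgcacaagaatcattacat
Pax8 intron, higher in TCKO: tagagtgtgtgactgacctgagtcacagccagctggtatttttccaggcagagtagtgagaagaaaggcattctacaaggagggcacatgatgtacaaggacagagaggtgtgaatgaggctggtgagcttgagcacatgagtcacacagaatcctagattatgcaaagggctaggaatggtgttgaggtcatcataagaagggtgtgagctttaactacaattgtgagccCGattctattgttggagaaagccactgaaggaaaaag
Both are poor in CpG, with 3 in the *Pax5* stretch and 1 in the *Pax8* stretch. The *Pax5* stretch holds the Runt word AACCACA at positions 235 to 241, the letters bound by RUNX factors on the other strand. The *Pax8* stretch holds the AP-1 word TGAGTCA at positions 19 to 25 and again at 139 to 145. A matched word is a description of the letters and not evidence of binding.

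Among the 8 proneural and oligodendrocyte bHLH factors, *Olig1*, which promotes oligodendrocyte maturation, had the highest ratio. Its locus had 187 WT and 163 TCKO counts, 0.52 (0.22 to 0.82). The difference came mostly from a region of 41 and 54 counts just downstream of the start, at 1.10 (0.53 to 1.70), while the region over the start had 146 and 109 counts and 0.29 (-0.06 to 0.65). Its neighbour *Olig2*, required for motor neurons and oligodendrocytes, had only 49 and 20 counts and -0.56 (-1.32 to 0.17). *Neurod1*, a driver of neuronal and islet differentiation, had a single region in its coding exon with 367 and 190 counts and -0.23 (-0.48 to 0.02). That region also overlaps the gene *Cerkl*. *Neurog1*, a proneural factor of sensory ganglia, was at 0.36 (0.02 to 0.71), whereas *Neurog2* and *Neurod2*, which act in cortical neurons, were at 0.09 and 0.07 with intervals that included 0. *Neurog3*, which starts the endocrine pancreas programme, and *Olig3*, of the dorsal neural tube, had no region, but regions within 25 kb of these genes held 840 WT and 668 TCKO counts around *Neurog3* and 444 and 289 around *Olig3*.

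The 6 LIM homeodomain factors contained both the clearest lower and the clearest higher locus. *Lhx2*, which specifies the eye and forebrain and also acts in the limb bud, lies at chr2:38339281-38369733 on the plus strand. It had 1119 WT and 559 TCKO counts, a ratio of -0.28 (-0.43 to -0.14), and was the only member with an interval below 0. The 2 regions at its annotated start did not share this, with 107 and 67 counts and 0.04 (-0.40 to 0.48). The lower sites lay further in. A CpG-dense region at the start of an internal transcript (chr2:38350457-38351315) had 673 and 341 counts and -0.26 (-0.45 to -0.08), and a coding exon region near the end of the gene (chr2:38368629-38369110) had 339 and 151 counts and -0.45 (-0.73 to -0.17).

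*Lhx4*, a factor of pituitary and motor neuron development, showed the opposite. Its gene lies at chr1:155698031-155751684 on the minus strand, and its locus had 771 WT and 664 TCKO counts with a ratio of 0.50 (0.35 to 0.65). Of its 6 regions, 5 had a ratio above 0. The highest, 229 bp from the start of a transcript inside the gene, was chr1:155742203-155742309 with 45 and 60 counts, 1.12 (0.58 to 1.69), and it was a peak in TCKO alone. The most counts lay in a region at chr1:155740585-155741303, 378 and 306, at 0.41 (0.20 to 0.63). *Lhx5*, of hippocampal development, was at 0.27 (0.08 to 0.46) and *Isl1*, of motor neurons, islets and the hindlimb field, at 0.21 (0.01 to 0.42). *Lhx1*, of head and kidney formation, was at 0.16 (-0.04 to 0.36), and *Lhx3*, of the pituitary, at 0.10 (-0.15 to 0.35).

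Both LIM gene sites are shown, since they differ in direction and in how densely they hold CpG. The *Lhx2* stretch is the central 300 bp of the coding exon region (chr2:38368720-38369019), which was classed by its midpoint, so part of it may be intron. The *Lhx4* stretch is the whole region. It is labelled for the nearest transcript start, 229 bp from its midpoint, and does not contain that start. Both are again from the plus strand with CpG in capitals.
Lhx2 coding exon, lower in TCKO: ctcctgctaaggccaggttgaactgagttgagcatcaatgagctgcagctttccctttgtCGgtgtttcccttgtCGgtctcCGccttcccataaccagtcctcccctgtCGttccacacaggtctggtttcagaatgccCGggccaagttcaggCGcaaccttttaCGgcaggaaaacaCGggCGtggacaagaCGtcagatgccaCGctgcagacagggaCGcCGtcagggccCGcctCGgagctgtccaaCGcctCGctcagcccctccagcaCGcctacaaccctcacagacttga
Lhx4 transcript start, higher in TCKO: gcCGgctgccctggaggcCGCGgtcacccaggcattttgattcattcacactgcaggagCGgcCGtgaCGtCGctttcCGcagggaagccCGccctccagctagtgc
They hold 18 CpG in 300 bp and 9 in 107 bp. The 500 bp around the *Lhx4* region were CpG-dense, with an observed over expected ratio of 0.62, and those around the *Lhx2* region missed that cutoff at 0.59.

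Of the 8 forebrain and midbrain patterning factors, 7 had a ratio above 0, against 7902 of all 18049 loci. An interval above 0 was found at 4 of the 8, against 23.6% of all loci. Among those with at least 100 counts, *Six6*, of the eye and pituitary, had 92 WT and 76 TCKO counts and 0.44 (0.01 to 0.88), and *Otx2*, of the forebrain and eye, had 85 and 71 counts and 0.45 (0.00 to 0.91), the highest ratios of the group at that depth. The *Six6* start region also overlaps the gene 4930447C04Rik. In *Otx2* the excess lay in an intronic region of 9 and 24 counts, while the region at a transcript start had 76 and 47 counts and 0.02 (-0.50 to 0.55). *Otx1*, its paralogue, had 845 and 503 counts and -0.03 (-0.19 to 0.13). *Nkx2-1*, of thyroid, lung and ventral forebrain, had 52 and 47 counts and 0.56 (0.01 to 1.14), and *En1* was at 0.16 (0.01 to 0.30). The 2 *En1* regions within 2 kb of the start gave -0.05 (-0.24 to 0.13). An intronic *En1* region was at 0.33, and a coding exon region of 74 and 83 counts, a peak in TCKO alone, at 0.87. The intervals of *Six3*, which patterns the anterior forebrain, *Emx2*, of the cortex and shoulder girdle, and *En2*, of the cerebellum, included 0.

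*En2* nevertheless held the region with the highest ratio among member regions with at least 100 counts. Its midpoint lay in the intron 1537 bp from the start. It had 50 and 71 counts and 1.21 (0.70 to 1.74), and was a peak in TCKO alone. The region over the *En2* start had 67 and 31 counts and -0.39 (-1.004 to 0.22), and the one between them 262 and 163 counts and 0.03 (-0.25 to 0.31). This region, chr5:28167149-28167312, is labelled as intron by its midpoint but also overlaps 1 annotated exon. It is shown because it ends in a simple repeat.
En2 intron, higher in TCKO: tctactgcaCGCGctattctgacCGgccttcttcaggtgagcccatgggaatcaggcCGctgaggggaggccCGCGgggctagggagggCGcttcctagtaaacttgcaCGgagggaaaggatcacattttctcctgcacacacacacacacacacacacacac
It holds 8 CpG in 164 bp, all before the run of alternating C and A at its end.

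The 8 factors of the ventral neural tube and of neuronal subtypes had a median of 0.22. *Tlx3*, which specifies excitatory spinal and sensory neurons, had 273 WT and 234 TCKO counts and 0.49 (0.24 to 0.75). Its coding exon region had 153 and 162 counts and 0.80 (0.48 to 1.12), but the region over its start had 120 and 72 counts and -0.02 (-0.44 to 0.40). *Sox1* had 65 and 58 counts and 0.55 (0.04 to 1.06), again with a start region at -0.21 (-0.95 to 0.52) and a coding exon region at 1.33 (0.62 to 2.11). *Pou4f1*, of sensory neurons, was the lowest of the group, with 246 and 123 counts and -0.28 (-0.59 to 0.03). *Mnx1*, of motor neurons and pancreas, had 408 and 237 counts and -0.07 (-0.30 to 0.16).

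*Nkx2-2*, of ventral neural progenitors and the pancreas, was among the deepest members with 1376 WT and 934 TCKO counts and 0.16 (0.04 to 0.28). Its deepest region, 816 and 509 counts, was at 0.04 (-0.12 to 0.20). The region just inside the gene, centred 284 bp from its start, had 243 and 165 counts and 0.16 (-0.13 to 0.44). The region upstream of the start, chr2:147194810-147195139, had 72 and 93 counts and 1.08 (0.64 to 1.53), and was a peak in TCKO alone at a fold enrichment of 2.90. *Barhl2*, of spinal interneurons and retina, was at 0.31 (0.07 to 0.55). *Nkx6-1*, of motor neurons and beta cells, was at 0.01 (-0.14 to 0.16) and *Dbx1*, of spinal interneurons, at 0.28 (-0.11 to 0.67). The upstream *Nkx2-2* site is shown as the most CpG-rich of the sites that were at least 2-fold higher and had at least 100 counts, by the central 300 bp of the region (chr2:147194825-147195124).
Nkx2-2 upstream, higher in TCKO: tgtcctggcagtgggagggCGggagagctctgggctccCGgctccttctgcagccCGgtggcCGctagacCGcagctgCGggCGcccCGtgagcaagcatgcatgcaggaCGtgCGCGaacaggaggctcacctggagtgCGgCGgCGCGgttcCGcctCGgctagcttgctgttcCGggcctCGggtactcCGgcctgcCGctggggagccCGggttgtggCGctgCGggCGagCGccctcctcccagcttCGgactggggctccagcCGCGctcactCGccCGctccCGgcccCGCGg
It holds 34 CpG in 300 bp and no AP-1 or Runt word.

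All 7 endoderm and gut factors had a ratio above 0, against 7902 of all 18049 loci, but only 2 had an interval above 0. *Foxa1*, a pioneer factor of liver, lung and prostate, had 349 WT and 264 TCKO counts and 0.31 (0.08 to 0.54). Its coding exon region, a peak in TCKO alone, had 22 and 42 counts and 1.61 (0.91 to 2.39). The other 4 *Foxa1* regions, all within 2 kb of the start, gave 0.16 (-0.09 to 0.40), an interval that included 0. *Pdx1*, the pancreas factor, had 35 and 34 counts and 0.66 (0.00 to 1.35). *Gata4*, a factor of heart and foregut at chr14:63198922-63271692, was the deepest at 1599 and 990 counts with a locus ratio of 0.03 (-0.09 to 0.14), but its start went the other way. The region 107 bp from its start, chr14:63271479-63271691, had 148 and 55 counts and -0.70 (-1.16 to -0.27), and both regions within 2 kb of the start gave -0.59 (-0.96 to -0.23). That region is not CpG-dense. An intronic region at chr14:63207174-63207568 had 268 and 120 counts and -0.44 (-0.75 to -0.13), while the CpG-dense region at an internal transcript start (chr14:63245075-63245810) had 285 and 214 counts and 0.30 (0.05 to 0.56). The ratios of *Foxa2*, of foregut and floor plate, *Sox17*, of definitive endoderm, *Hnf4a*, of liver and gut, and *Cdx2*, of hindgut, lay between 0.05 and 0.19, and their intervals included 0.

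Peaks had been called on the merged reads of each genotype. Of the 144 member regions, 76 (52.8%) were called in both genotypes, 54 (37.5%) in WT alone and 14 (9.72%) in TCKO alone, against 56.8%, 33.0% and 10.2% of all regions. Of the 12353 CpG-dense regions within 1 kb of a start, 91.2% were called in both, against 56.5% of the 69 CpG-dense member regions. These sets are unlike, since only 42 of the 69 lay within 1 kb of a protein-coding transcript start. They also differ in depth, with a median of 841 WT counts in the 12353 and 83 in the 69. The member peaks had a median fold enrichment of 4.11 in WT and 3.79 in TCKO and a highest value of 11.5 in WT, at *Neurod1*. Of the 54 regions called in WT alone, only 27 had a ratio below 0, and their medians were 53.5 counts in WT and 34 in TCKO. All 14 called in TCKO alone had a ratio above 0. Every region was included for a peak in at least 1 genotype, so these 14 entered through TCKO alone, where they were relatively high. Their direction is therefore not read as a result. Presence in the WT list alone did not give the direction of the counts in these member regions. No matching share is given for all regions called in 1 genotype alone, so these counts do not set members apart. Among the 76 regions called in both, 57 had a ratio above 0 and the median was 0.22, against 61.2% and 0.14 of all regions called in both.

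The 11 regions that were at least 2-fold higher lay in 10 genes, 2 of them in *Pax5* and 1 each in *Pax8*, *Olig1*, *Lhx4*, *Otx2*, *En2*, *Nkx2-2*, *Sox1*, *Foxa1* and *Gata4*, and were thinly covered. Their counts over both genotypes ran from 33 to 307, and 7 had under 100. Every region used here was called as a peak in at least 1 genotype. Of the 11, 9 were peaks in TCKO alone, and so were included only through the genotype where they were high. For peak calls and positions no matching share of all regions at least 2-fold higher is given. Of the 11, 6 lay in introns, 2 in coding exons and 3 within 1 kb of a start, and 5 were CpG-dense. These were 5 of 69 CpG-dense member regions (7.25%), against 0.781% of all CpG-dense regions, and all 5 lay in the 3 lowest quintiles of count, where they were 5 of 37 against 5.93%. With the member regions split at quintiles of the counts of all regions, 6 of 26 in the lowest quintile were at least 2-fold higher, against 25.8% of all regions in that quintile, and 0 of 22 in the highest, against 1.78%. In quintile 4, from 199 to 434 counts, members had a median of 0.24 and all regions 0.07, and in the highest -0.01 and -0.08.

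**Figure D3:**
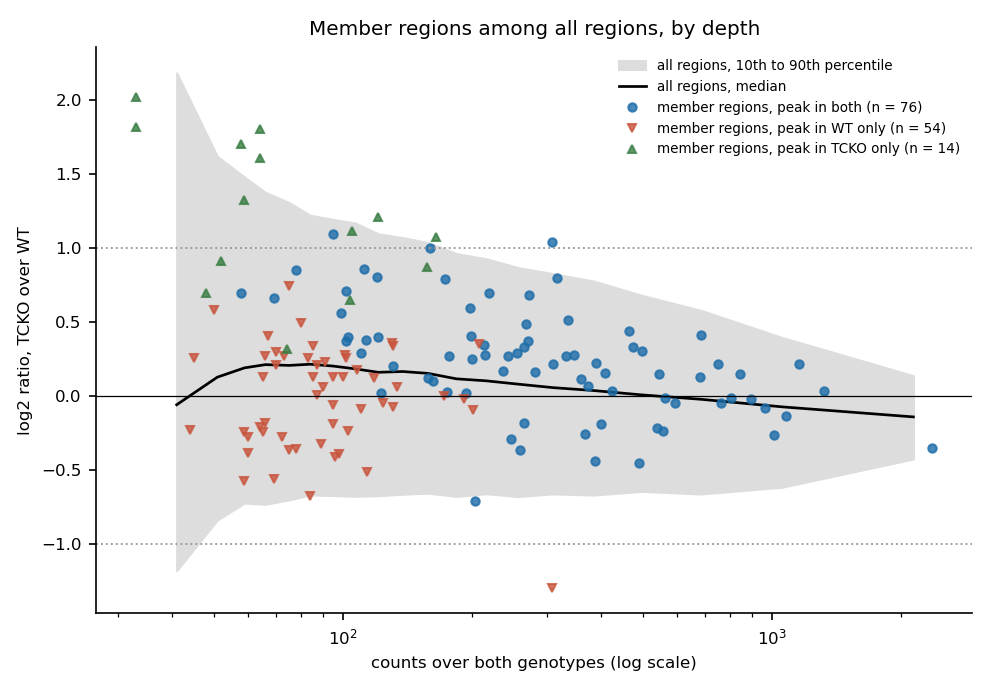
Log2 ratio of TCKO over WT against counts over both genotypes (log scale) for the 144 member regions, marked by the genotype in which they were called as a peak. The line and band are the median and the 10th to 90th percentile of all regions in 20 bins of count; 7 of the 11 regions past 1 lie under 100 counts, and the point under -1 is the *Pax5* intron.

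Most member regions were at starts or in introns, with 58 within 1 kb of a transcript start, 58 in introns, 17 in coding exons, 6 in UTRs and 5 upstream. Position was taken from the midpoint of each region, so a region can reach into a neighbouring part. Of all 144, 35 overlapped another annotated gene of any type, often an antisense RNA such as *Nkx2-2os*, and ATAC-seq reads carry no strand that could part them. The median ratio was 0.13 within 1 kb of a start, 0.26 in introns and 0.28 in coding exons.

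Although 69 of the 144 member regions (47.9%) were CpG-dense, against 5.86% of all regions, the ratio did not follow CpG content among members. CpG-dense member regions had a median of 0.20 and the other 75 had 0.22. Among all regions the CpG-dense ones were lower, at -0.08 against 0.09. Across the 144 member regions, which share libraries, Spearman's rho between ratio and observed over expected CpG was -0.02, and across all regions -0.22. CpG-dense member regions were also much shallower than CpG-dense regions at large, with a median of 83 WT counts against 735. Within the 3 lowest quintiles of count, 37 CpG-dense member regions had a median of 0.21 and 1789 CpG-dense regions of all genes 0.16, and in quintile 4 the 18 members had 0.27 against 0.08. After the loess fit the CpG-dense medians were 0.07 for members and 0.00 for all regions.

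**Figure D4:**
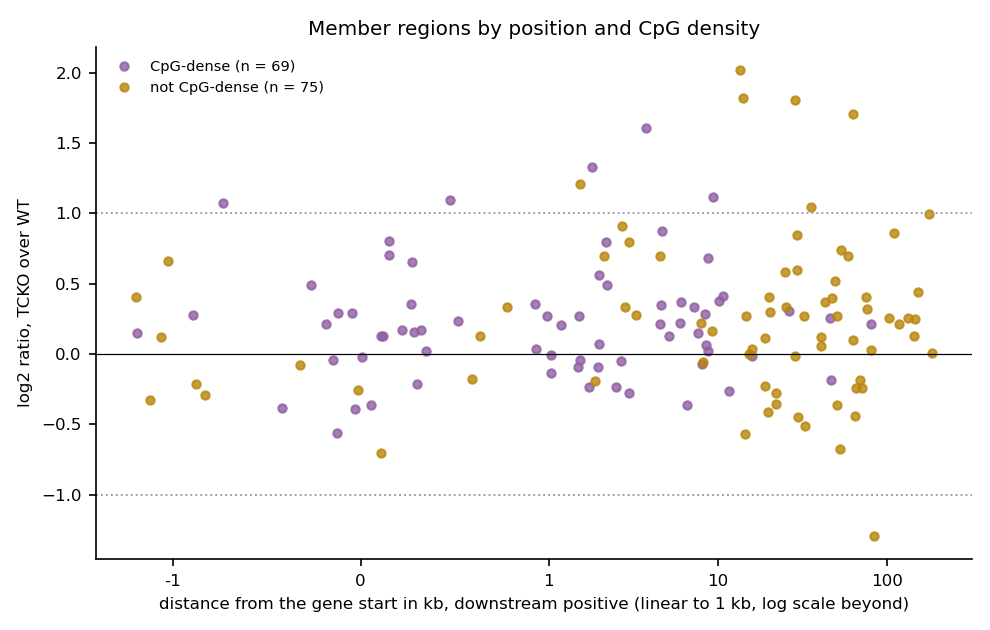
Log2 ratio of TCKO over WT for the 144 member regions against distance from the annotated gene start in kb (linear within 1 kb, log scale beyond), coloured by CpG density. Both kinds of region lie on both sides of 0 near the start and far from it, and the regions past the 2-fold lines are at 11 of 144 above and 1 of 144 below.

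Words of AP-1 and Runt factors, both active in osteoblasts, were in a smaller share of member regions than of all regions. The AP-1 word TGACTCA, searched on both strands, was in 16 of 144 member regions (11.1%) and 23.6% of all regions, and in windows of equal length (500 bp) in 11.1% and 25.7%. The Runt word TGTGGTT was in 4.86% and 12.3% of regions, and in 7.64% and 15.8% of windows of 500 bp. In windows of 500 bp, CpG-dense regions within 1 kb of a start held them less often than members, with AP-1 in 4.03% and Runt in 4.08%. Over whole regions AP-1 was in 8.25% of these, below the member share, but Runt in 8.09%, above it. Whole regions differ in length, with a median of 818 bp there and 209.5 bp in members. The homeobox word TAATTA was in 9.03% of member windows, 9.74% of all and 1.81% of those at CpG-dense starts. Member regions with the AP-1 word had a median ratio of 0.35, and all regions with it 0.34.

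Other gene lists gave medians on both sides of that of the members. The 35 *Hox* loci with a region had a median of 0.14, with 15 intervals above 0 and 1 below, and the 30 mesenchyme factors had 0.00, with 12 above and 3 below. Of 20 terminal neuronal and glial genes, 11 loci were above 0 and 3 below, with a median of 0.24. *Dcx*, a microtubule protein of migrating neurons, was highest there, with 106 WT and 105 TCKO counts and 0.70 (0.32 to 1.09), and *Syp*, a synaptic vesicle protein, was lowest with 1728 and 907 counts and -0.21 (-0.33 to -0.10). Of the 16 terminal endodermal loci with a region, 4 were above 0 and 3 below, with a median of 0.10. The 21 Polycomb subunits and H3K27 demethylases, the machinery that acts on such promoters, had a median of -0.04 with 1 above and 5 below, and the osteoblast markers had -0.12 with 1 above and 4 below. After the loess fit the medians were 0.10 for members, 0.13 for *Hox* genes, 0.22 for terminal neuronal and glial genes and -0.01 for terminal endodermal genes.

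**Figure D5:**
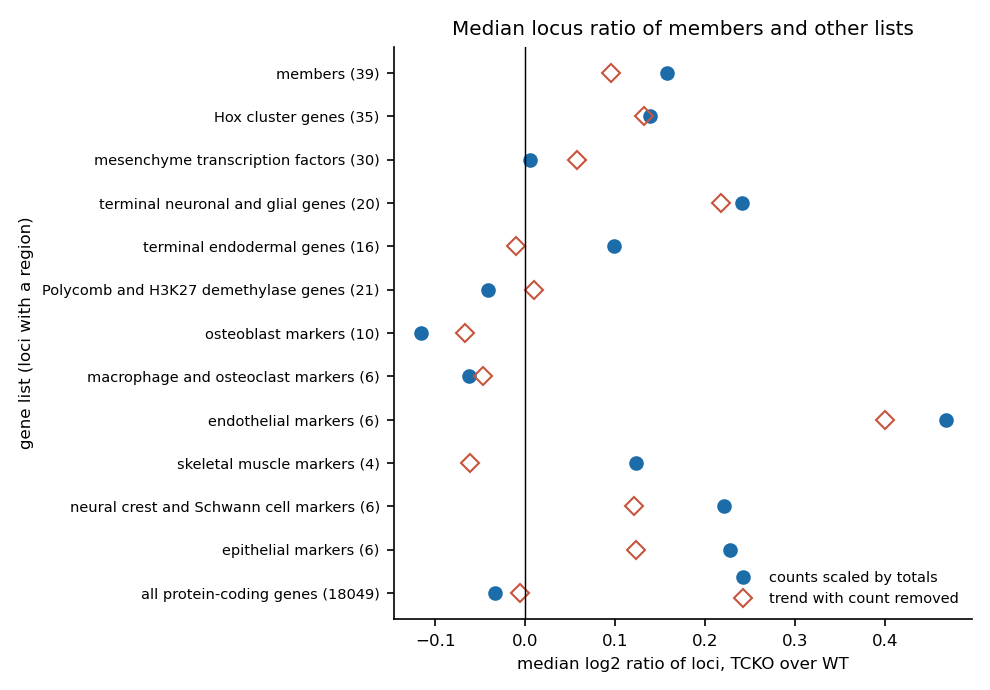
Median log2 ratio of TCKO over WT over the loci of each gene list, with the number of loci with a region in brackets, before (circles) and after (diamonds) removal of the trend with count. Members lie at 0.16 and 0.10, all protein-coding genes at -0.03 and -0.01, and the 6 endothelial markers furthest to the right.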

How the data were processed

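ATAC-seq reads were aligned by the authors with STAR 2.7.0e to GRCm38 (unique reads, end to end), replicates were merged per genotype, and peaks were called with MACS2. The handling of duplicates before counting and any shift of reads for the transposase were not given in the sources used here. The authors deposited raw counts per region with each genotype pooled in 1 column, counted by bedtools multicov as the table's naming says. Their deposited peak lists hold a score, a fold enrichment (a ratio to the local background) and the −log10 of the p-value and q-value for each summit.

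Regions were joined to genes of GENCODE M21, counting an overlap of at least 1 bp, and coordinates are GRCm38, counted from 1. TCKO counts were scaled by total counts, which were 56898657 in WT and 34608167 in TCKO and set the precision. Alternatives were TMM (edgeR 4.0.16), size factors (DESeq2 1.42.0), no scaling, the background of the peak caller, a loess fit (span 0.3), medians in 20 bins of GC content, other folds, added counts, count minimums and other region rules. Both edgeR and DESeq2 gave factors only, because merged columns allow no test.

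All 41 members are named. Values in full are given for the 6 lowest and 6 highest loci and the 5 lowest and 5 highest regions with at least 100 counts over both genotypes, the 5 loci with most WT counts and the deepest regions at their starts. Other regions and loci were described after their values were seen. Members, lists and words were chosen with earlier results of these data known. The steps were tested on simulated data (Python 3.11.15, numpy 2.4.6, pandas 2.3.3, statsmodels 0.14.6, pysam 0.24.0, R 4.3.3).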

Additional observations from a re-analysis of the deposited data

How the results depend on the processing

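No paired analysis was possible because the replicates of each genotype are merged into a single column, and leaving out a replicate could not be run for the same reason. Depth limits the members: the 4 loci with a region and under 100 counts have intervals over 1 wide on the log2 scale.

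With TMM factors 6 member loci lay above 0 and 4 below, with a locus median of 0.082, and with DESeq2 size factors 7 lay above and 4 below. Without scaling, 4 regions were at least 2-fold higher and 17 lower, against 3.17% and 25.6% of all regions, with a member median of -0.50. Of the loci, 0 lay above 0 and 31 below, with a median of -0.56. Scaled by the background of the peak caller, 5 regions were higher and 9 lower, against 3.91% and 19.9% of all regions, with a member median of -0.39. For loci, 0 lay above 0 and 28 below, with a median of -0.45. Under these last 2 settings the sign turned for *Six6* (-0.27 and -0.17), *Otx2* (-0.26 and -0.15), *Tlx3* (-0.22 and -0.11), *Lhx4* (-0.22 and -0.11), *Olig1* (-0.20 and -0.089), *Sox1* (-0.16 and -0.055), *Pax5* (-0.51 and -0.40) and *Nkx2-2* (-0.56 and -0.45), since both shift all loci together.

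After the loess fit 7 regions were at least 2-fold higher, the region median was 0.073, 8 loci lay above 0 and 4 below, and the locus median exceeded that of all loci by 0.10. With the GC trend removed, the region median exceeded that of all regions by 0.23, and the locus median that of all loci by 0.22. Then 2 loci lay below 0, against 25.7% of all loci. With 10 counts added, 7 regions were at least 2-fold higher, against 9.57% of all regions. At a fold of 1.5, 28 regions were higher and 3 lower, against 23.3% and 13.2% of all regions. At a fold of 3, 5 were higher and 0 lower, against 4.03% and 0.784%. With regions within 2 kb of the gene start, 4 of 55 regions were higher and 0 lower, against 12.3% and 4.51% of all regions. Then 10 of 29 loci lay above 0, against 13.1% of all loci, and *Lhx2* turned to 0.042 and *Gata4* to -0.59. With regions within 25 kb, 38 of 379 regions were higher and 8 lower, against 12.3% and 4.51% of all regions, and 3 loci lay below 0, against 35.7% of all loci. *Six6* turned to -0.021 and *Gata4* to -0.018, and *Pou4f1* (0.29), *Mnx1* (0.31), *Neurod1* (0.19) and *Otx1* (0.15) turned above 0. Without *Pax5*, a choice made after seeing the data, 0 regions were at least 2-fold lower.

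The share of member regions called as a peak in WT alone was 17.4% at a −log10 q of at least 5, 13.2% at 10 and 47.2% with 50% of the region covered, and that in TCKO alone 0.694% at 5 and at 10. For all regions these were 19.6%, 13.5% and 40.8% in WT alone, and 4.48% at 5 and 2.13% at 10 in TCKO alone. CpG-dense starts made up 41.5% of members at an observed over expected CpG of 0.75 and a GC content of 55%, and 87.8% with any transcript start. The causes of these changes were not tested. Under TMM, DESeq2, loess, the GC correction and 10 added counts, the 25 named loci and regions kept their direction except *Gata4*, at -0.050 with TMM and -0.040 with DESeq2, and *Otx1*, at 0.0021 with the GC trend removed, both loci whose intervals included 0.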
